A study of Mus musculus with 2 samples.

Results

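Myeloid progenitors with primary granule genes were counted in single-cell RNA-seq libraries of mouse fracture callus, the repair tissue around a healing break. Members were selected on measured UMI counts, as the barcodes in which Mpo, Elane, Prtn3 and Ctsg together made up at least 20 of every 10000 UMIs (unique molecular identifiers, one per captured RNA molecule), from at least 2 of these 4 genes. Barcodes with at least 10 UMIs of C1qa, C1qb and C1qc per 10000 or at least 100 of Col2a1 were left out. Library MGJ held 97 members among 13460 kept barcodes, and library MGJ2 held 165 among 7806. These were 0.721% (95% Clopper-Pearson interval 0.585 to 0.878) and 2.11% (1.81 to 2.46) of the barcodes.

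Both libraries came from callus of wild-type mice with a femoral fracture and no further treatment in the labels. Per the methods of the study, fractures of C57BL/6J males aged 12 weeks were sampled on day 10 in 5 animals and on day 20 in 5 others. Which of these days a library holds is not in its label, and animals within a library cannot be separated by barcode. Each library is therefore 1 sample without a group, values stand side by side, and no test between samples and no comparison of days was made. Callus was dissociated with enzymes, and whether marrow of the broken femur was among the cells was not tested.

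Neutrophils, the short-lived phagocytes that arrive first at an injury, are made in bone marrow from dividing progenitors. Granule proteins are produced in waves as these cells mature. Promyelocytes make the primary or azurophil granule proteins, myeloperoxidase and the serine proteases neutrophil elastase, proteinase 3 and cathepsin G. Myelocytes and metamyelocytes then make the secondary granule proteins such as lactoferrin, and later cells, which no longer divide, make gelatinase before they leave the marrow.

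Gated barcodes were rich in RNA. Their median was 18643 UMIs and 3409 genes in MGJ and 31211 UMIs and 4851 genes in MGJ2, against 5706 and 5116 UMIs over all kept barcodes. The median share of mitochondrial UMIs was 4.44% and 4.81%. Doublets, barcodes with 2 cells, were not removed. Among the barcodes with the highest Scrublet doublet scores, 10.8% and 6.24% of all kept barcodes, were 16 of 97 and 30 of 165 gated barcodes, a larger share than over all barcodes. The part of doublets in the high UMI counts was not tested. The libraries shared 19 barcode sequences, of which 1 was gated. Intervals below cover counting error only, and paired values are given for MGJ first and MGJ2 second.

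The members were chosen by the UMIs of these 4 genes, so their values are a description. Their sum per 10000 UMIs ran from 20.5 to 435 with a median of 99.1 in MGJ, and from 20.7 to 416 with a median of 129 in MGJ2. All 4 genes were detected in 83 of 97 and 138 of 165 members, 3 genes in 10 and 21, and 2 genes in 4 and 6. Prtn3 had the most UMIs of the 4 in 74 of 97 members in MGJ, whereas Mpo led in 56, Elane in 55, Prtn3 in 50 and Ctsg in 4 of 165 in MGJ2. The members nearest to the limit had 20.5, 20.6 and 20.8 per 10000 in MGJ, and the nearest barcodes outside had 19.7, 19.4 and 18.4. In MGJ2 these values were 20.7, 21.4 and 22.7 inside and 19.8, 19.6 and 19.0 outside. Between 20 and 50 per 10000 lay 29 and 38 members, and 29 and 27 barcodes outside lay between 10 and 20.

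Mpo, the peroxidase that makes hypochlorous acid, stood at 2007 CPM (95% interval 1946 to 2070.3) in gated barcodes of MGJ and 4565 CPM (4509.9 to 4621) in MGJ2 (CPM, UMIs per 1000000 UMIs of the set). Elane, neutrophil elastase, stood at 3782 CPM (3697 to 3868) and 4539.8 CPM (4485 to 4596). Prtn3, proteinase 3, stood at 5713 CPM (5609 to 5819) and 4588 CPM (4532 to 4644). Ctsg, cathepsin G, stood at 1914 CPM (1854 to 1975) and 1448 CPM (1417 to 1480.1). B lineage barcodes, which should lack these genes and serve as a reference for free RNA, held 6 and 49 UMIs of the 4 genes in 273 and 729 barcodes. Gated barcodes held 90.5% and 97.1% of all UMIs of the 4 genes in the kept barcodes.

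**Figure D1:**
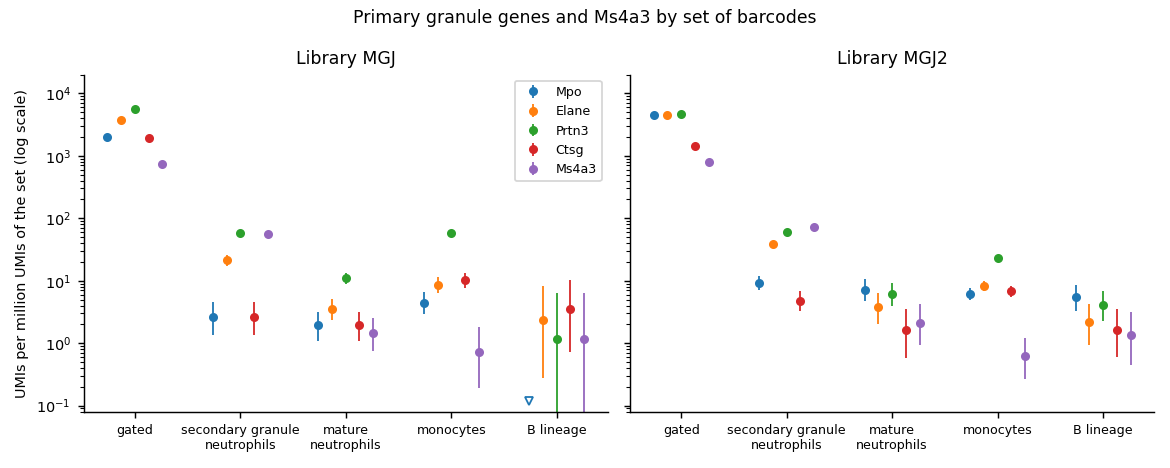
CPM on a log axis of Mpo, Elane, Prtn3, Ctsg and Ms4a3 in gated barcodes, secondary granule neutrophils, mature neutrophils, monocytes and B lineage barcodes of each library. Points are summed UMIs with exact Poisson 95% intervals and an open triangle marks a count of 0. Gated barcodes sit above every other set for all 5 genes, which the gate fixed for all but Ms4a3.

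The genes of the rule lie on 3 chromosomes. On GRCm38 (GENCODE release M21), Mpo is at chr11:87793581-87804413 on the plus strand, Ctsg at chr14:56099881-56102574 on the minus strand, Prtn3 at chr10:79874476-79883174 and Elane at chr10:79886247-79888215, both on the plus strand and 3072 bases apart. Prss57, a further serine protease of the primary granule, lies upstream of this pair at chr10:79781474-79790961 on the minus strand, and Ms4a3 lies at chr19:11629496-11640851 on the minus strand. The bases before the start of 5 of these genes are shown because their RNAs mark the same barcodes. Prss57 had no entry in the RefSeq table. They are the 250 bases before each RefSeq start on GRCm38.p6, 5′ to 3′ on the strand of the gene, at chr11:87793534-87793783 (plus) for Mpo, chr10:79886062-79886311 (plus) for Elane, chr10:79879417-79879666 (plus) for Prtn3, chr14:56102575-56102824 (minus) for Ctsg and chr19:11640852-11641101 (minus) for Ms4a3. The GENCODE models of Mpo, Elane and Prtn3 start further upstream than these RefSeq starts and overlap the windows. Capitals mark AGGAAGT, the core of the motif bound by the ETS factor PU.1.
Mpo: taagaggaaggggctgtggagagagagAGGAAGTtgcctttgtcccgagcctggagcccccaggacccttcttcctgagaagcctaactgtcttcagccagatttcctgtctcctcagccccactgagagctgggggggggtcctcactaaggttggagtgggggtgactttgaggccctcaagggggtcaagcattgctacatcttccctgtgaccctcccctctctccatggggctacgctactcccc
Elane: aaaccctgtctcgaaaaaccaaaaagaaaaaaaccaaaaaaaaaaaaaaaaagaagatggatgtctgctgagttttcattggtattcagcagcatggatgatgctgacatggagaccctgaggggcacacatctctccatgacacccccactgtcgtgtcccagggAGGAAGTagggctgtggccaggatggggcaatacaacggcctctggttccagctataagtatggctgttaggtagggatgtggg
Prtn3: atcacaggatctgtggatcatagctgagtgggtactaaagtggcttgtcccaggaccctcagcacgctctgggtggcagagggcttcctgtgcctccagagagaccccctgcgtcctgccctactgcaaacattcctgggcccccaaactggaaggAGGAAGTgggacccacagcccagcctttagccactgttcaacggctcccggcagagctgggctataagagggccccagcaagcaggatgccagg
Ctsg: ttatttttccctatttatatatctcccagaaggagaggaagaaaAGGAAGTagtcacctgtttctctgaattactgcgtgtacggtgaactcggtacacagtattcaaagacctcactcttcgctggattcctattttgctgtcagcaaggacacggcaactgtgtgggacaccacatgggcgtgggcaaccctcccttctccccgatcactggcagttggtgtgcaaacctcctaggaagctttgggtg
Ms4a3: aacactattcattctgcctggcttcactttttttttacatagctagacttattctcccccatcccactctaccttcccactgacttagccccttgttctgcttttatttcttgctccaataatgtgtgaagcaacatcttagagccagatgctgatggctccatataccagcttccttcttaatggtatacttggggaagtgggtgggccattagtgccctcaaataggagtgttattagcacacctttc

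Each of the 4 genes of the rule held AGGAAGT once on its own strand, first base 223 bases before the start in Mpo, 84 in Elane, 94 in Prtn3 and 206 in Ctsg. Ms4a3 held none. Over windows of 300 bases around 32851 RefSeq starts (250 before and 50 after, both strands searched), 9.35% held these letters. The longer GAGGAAGT, which overlaps the same match, was found in Mpo, Elane and Prtn3 and in 3.20% of windows. CAACNG, the core of the MYB motif, was found 51 bases before the start in Elane, 56 in Prtn3, and in Ctsg at 93 on its own strand and at 36 on the opposite strand, and in 35.0% of windows. TGTGGT, the RUNX core, was found in Ctsg at 79 bases on the opposite strand and in 16.8% of windows. TTGCNNAA, a C/EBP motif, was found in Ms4a3 only, within the bases after the start, and in 10.8% of windows. These are matches of letters and say nothing of binding.

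Ms4a3, a tetraspan membrane protein that marks granulocyte and monocyte progenitors, was not used by the rule. It stood at 727 CPM (95% interval 690.3 to 765) in gated barcodes of MGJ and 792 CPM (769 to 815) in MGJ2, with at least 1 UMI in 88 of 97 and 153 of 165 members. All other kept barcodes stood at 2.94 and 10.5 CPM, a ratio of 248 (221 to 278) and 75.5 (69.2 to 82.5). With every barcode weighted equally the ratios were 352 and 160.4. After thinning each barcode to 2000 UMIs, Ms4a3 was detected in 60% (49.4 to 69.9) and 62.6% (54.7 to 70.0) of gated barcodes (unthinned 90.7% and 92.7%). The share in B lineage barcodes was 0 of 138, which allows up to 2.17%, and 0.141%, both under the intervals of the gated barcodes. The thinned gated and B lineage barcodes had medians of 858 and 989 genes in MGJ and 929 and 1078 in MGJ2, at the same 2000 UMIs. Barcodes with fewer UMIs were left out, 2 and 2 gated, 16 and 11 secondary granule and 135 and 21 B lineage barcodes.

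Across all genes with at least 50 UMIs in both sets together, 2766 of 14765 (18.7%) were at least 2-fold higher in gated barcodes than in all other kept barcodes of MGJ and 1923 of 13120 (14.7%) in MGJ2. At least 2-fold lower were 25.4% and 29.9%. Of 10 tested genes of other primary granule and granule-processing proteins, 5 were at least 2-fold higher in MGJ and 5 in MGJ2, and 0 and 1 were lower. The median log2 ratio of this list was 0.96 and 1.16, beside -0.01 and -0.12 over all genes tested. Prss57 stood at 124 CPM (109 to 139.9) and 142 CPM (132 to 152), 175-fold and 63.9-fold above other barcodes. Nkg7, a granule membrane protein better known from cytotoxic lymphocytes, stood at 281 and 371 CPM, and Serpinb1a, an inhibitor of elastase-type proteases, at 369.7 and 340.0 CPM. Ctsc, the protease that activates the granule serine proteases, stood at 314 CPM (289.7 to 339) and 74.2 CPM (67.3 to 81.6). Cst7, cystatin F, an inhibitor of Ctsc, was among the 10 genes with the highest ratio in both libraries, at 154 and 166 CPM and ratios of 75.4 and 24.4. Srgn, the proteoglycan that packs granule proteins, was abundant in gated barcodes (2550.4 and 2316 CPM) and in secondary granule neutrophils (3790.5 and 3029 CPM). Bpi, a further primary granule protein, had 0 UMIs in the gated barcodes of both libraries. The genes among the 10 highest in both libraries were Cst7, Ctsg, Elane, Mpo, Ms4a3, Prss57 and Prtn3.

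Next, gated barcodes were set against secondary granule neutrophils, barcodes outside the gate with at least 50 UMIs of Camp, Ngp and Ltf per 10000 (598 in MGJ and 649 in MGJ2). The gate genes and these 3 genes define the sets, so their differences are fixed by the rules. The median log2 ratio over all genes tested was 0.63 and 0.68. S100a8 and S100a9, the alarmins that fill neutrophils, stood at 130344 and 161283 CPM in secondary granule neutrophils of MGJ and 24357 and 26950.2 CPM in its gated barcodes, and in MGJ2 at 127145 and 113269 CPM against 33108 and 26591 CPM. Of all genes tested, 2534 of 6788 (37.3%) and 3500 of 8789 (39.8%) were at least 2-fold higher in gated barcodes, and 9.97% and 11.3% at least 2-fold lower. The counts below are read against these shares. The number of higher genes depends on the minimum of 50 UMIs, and 977 and 1784 were higher with at least 200 UMIs. A higher minimum also leaves fewer genes to test. Their number was not counted, so the share at 200 UMIs is not known.

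Genes of protein folding and secretion, which prepare granule proteins in the endoplasmic reticulum, were higher in gated barcodes. Of 18 tested, 17 in MGJ and 17 in MGJ2 were at least 2-fold higher and 0 were lower, with median log2 ratios of 1.87 and 2.23. Their summed level was 6713 and 7587 CPM, a ratio of 3.80 (3.70 to 3.91) and 5.21 (5.10 to 5.33). Calr, the calcium-binding chaperone calreticulin, stood at 897 CPM (856 to 939.6) and 1336 CPM (1307 to 1367), with ratios of 5.85 and 18.5. Sdf2l1, a partner of the chaperone BiP, had ratios of 18.9 and 34.1. Hspa5, which encodes BiP itself, had ratios of 2.12 and 3.61, and Hyou1, a further chaperone, was within 2-fold at 1.22 (0.821 to 1.79) and 1.21 (1.04 to 1.42).

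Genes of ribosome biogenesis, which build the protein synthesis machinery, were higher as well. Their summed ratio, over all genes of the list, was 7.87 (7.45 to 8.32) and 9.09 (8.71 to 9.50). Of the 12 on the list, all 10 that reached 50 UMIs in MGJ and all 12 in MGJ2 were at least 2-fold higher. The median log2 ratios of these tested genes were 2.81 and 3.51. A gene rare in secondary granule neutrophils can pass this minimum through the gated side alone, so nothing is read from the count of tested genes. Npm1, nucleophosmin of the nucleolus, was the most abundant of them at 1679 CPM (1623 to 1737) and 1737 CPM (1703 to 1772), against 172 and 139.5 CPM. Fbl, the methyltransferase fibrillarin, had ratios of 11.2 (8.32 to 15.4) and 17.1 (13.2 to 22.6).

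Early progenitor genes were read gene by gene. Of the 14 on the list, 6 and 11 reached 50 UMIs over both sets, 4 and 10 of them at least 2-fold above secondary granule neutrophils. Since a rare gene can reach 50 UMIs through the gated side alone, nothing is read from this count. Kit, the stem cell factor receptor, stood at 17.4 CPM (12.1 to 24.2) and 46.5 CPM (41.1 to 52.5), with ratios of 5.29 (2.82 to 10.4) and 11.5 (7.73 to 17.8). Cd34, a sialomucin of blood progenitors, stood at 32.3 and 64.0 CPM with UMIs in 22 of 97 and 49 of 165 members. Myb, a transcription factor of immature blood cells, stood at 51.6 CPM (42.2 to 62.5) and 189 CPM (178 to 201), with ratios of 6.05 and 4.59. Nucb2, a calcium-binding protein on the same list, was below secondary granule neutrophils at ratios of 0.674 (0.541 to 0.834) and 0.598 (0.520 to 0.686). Mecom, a transcription factor of blood stem cells, had 3 and 2 UMIs over all gated barcodes. Meis1, a further factor of early progenitors, had 4 and 37 UMIs, in 2 of 97 and 22 of 165 members.

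Among 14 transcription factors of myeloid cells, 2 of 11 tested were at least 2-fold higher and 1 lower in MGJ, and 6 and 2 of 14 in MGJ2. Their medians, 0.63 and 0.48, stood beside 0.63 and 0.68 over all genes. Cebpa, which opens the granulocyte programme, stood at 14.4 CPM (9.64 to 20.7) and 42.8 CPM (37.6 to 48.6), against 2.63 and 3.90 CPM in secondary granule neutrophils. Gfi1, a repressor needed for neutrophil fate, stood at 5.96 CPM (3.08 to 10.4) and 36.3 CPM (31.5 to 41.6). Cebpe, which drives secondary granule genes, stood at 143 and 239 CPM, with ratios of 1.55 (1.33 to 1.80) and 1.18 (1.09 to 1.27). Spi1, which encodes PU.1, was close to the later stage, at ratios of 1.09 and 0.813. Of growth factor receptors, Csf3r, the receptor for the neutrophil growth factor G-CSF, stood at 38.2 and 63.5 CPM, under its level in secondary granule neutrophils (56.7 and 109 CPM). Reads of Csf2rb and its near copy Csf2rb2 may be split between them, and their levels (178 and 21.3 CPM in MGJ) are uncertain. Over the 12 receptors on the list, 3 of 11 and 5 of 12 tested were higher and 2 and 1 lower.

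The genes of later neutrophil stages were lower in gated barcodes. Of 9 secondary granule genes, 8 and 9 were at least 2-fold lower, 3 of which define the sets. Lcn2, a siderophore-binding protein outside the rules, stood at 1136 and 617 CPM against 11999.6 and 9551 CPM. Of 12 gelatinase granule and mature neutrophil genes, 10 and 11 were lower, with median log2 ratios of -2.66 and -2.84. Mmp8, neutrophil collagenase, stood at 15.9 CPM (10.9 to 22.4) and 3.88 CPM (2.43 to 5.87) in gated barcodes, 29.5-fold and 229-fold under secondary granule neutrophils. Mmp9, gelatinase B, had 5 and 7 UMIs in all gated barcodes, and the neutrophil surface protein Ly6g had 3 and 11. Retnlg, a resistin-like secreted protein, was 80.8-fold and 114-fold lower. Csf3r was within 2-fold in both libraries. Il1b, an inflammatory cytokine, stood at 1269 CPM (1219.8 to 1319) and 147 CPM (137 to 157), above secondary granule neutrophils in MGJ (ratio 3.64) and below them in MGJ2 (0.474). The value in MGJ was spread unevenly over its members. Of the 66 with under 50 UMIs of Camp, Ngp and Ltf per 10000, 46 held Il1b, at a median of 1.99 and a maximum of 133 per 10000. Of 6 NADPH oxidase subunits, which make the respiratory burst, 1 and 3 were at least 2-fold lower and 0 higher, with Cybb, the catalytic subunit, at ratios of 0.436 (0.402 to 0.473) and 0.267 (0.255 to 0.279).

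**Figure D2:**
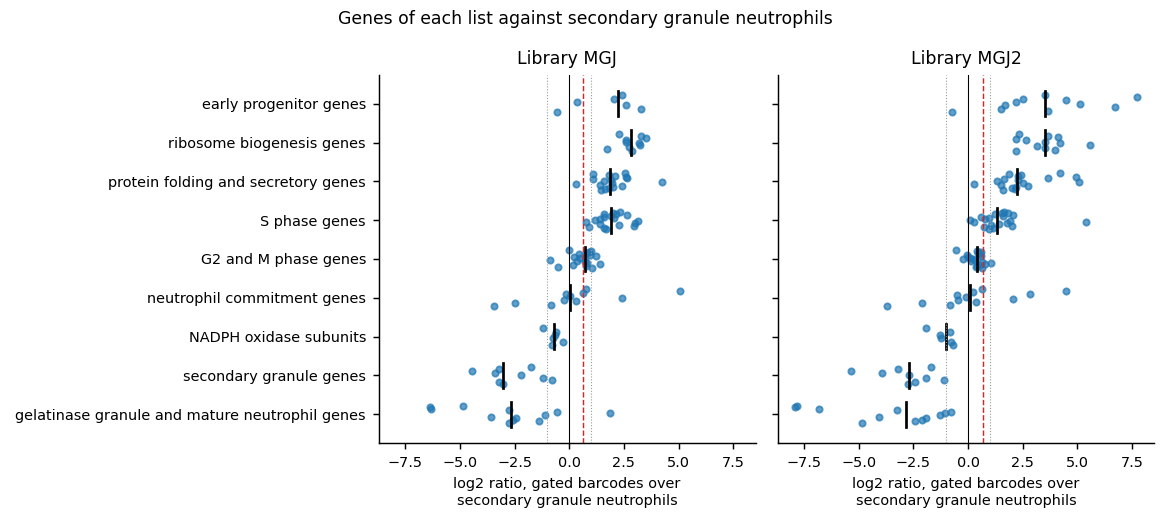
Log2 ratio of CPM in gated barcodes over secondary granule neutrophils for each tested gene (points) of 9 lists, with the median of the list (black bar) and the median of all genes (red dashed line). Dotted lines mark 2-fold. Ribosome biogenesis and secretory genes lie to the right of 0, and secondary and gelatinase granule genes lie to the left, except Il1b in MGJ.

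S phase genes were higher in gated barcodes than in secondary granule neutrophils, whereas few G2 and M phase genes were. Of the S phase genes, which copy DNA, 17 of 19 tested in MGJ and 13 of 20 in MGJ2 were at least 2-fold above secondary granule neutrophils, at summed ratios of 3.47 (3.30 to 3.65) and 2.10 (2.04 to 2.16). Mcm6, a subunit of the replicative helicase, had ratios of 6.28 and 4.13. Of the G2 and M phase genes, which divide the cell, 3 of 19 and 1 of 20 were, at summed ratios of 1.55 (1.47 to 1.62) and 1.15 (1.12 to 1.18), and their median log2 ratios of 0.74 and 0.40 stood beside 0.63 and 0.68 over all genes. Top2a, the topoisomerase of dividing chromosomes, stood at 227 and 296 CPM, while Mki67, the proliferation antigen, stood at 132 CPM (117 to 149) and 204 CPM (192 to 216) against 133 and 297 CPM in secondary granule neutrophils. Both lists together gave ratios of 2.29 (2.21 to 2.37) and 1.57 (1.54 to 1.60). The combined ratio of MGJ2 was no higher than the median ratio of all genes. With every barcode weighted equally the combined ratio of MGJ2 was 2.80 (the cause was not tested). At 2000 UMIs per barcode, Top2a was detected in 29.5% (20.6 to 39.7) and 41.1% (33.5 to 49.1) of gated barcodes (unthinned 73.2% and 84.8%) and in 8.76% (6.59 to 11.4) and 13.8% (11.2 to 16.7) of secondary granule neutrophils. In mature neutrophils, which do not divide, the share was 0.512% and 0.989%.

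Gated barcodes were then set against monocytes, barcodes outside the gate with at least 10 UMIs of Csf1r, Ccr2, F13a1 and Ms4a6c per 10000 from at least 2 genes and under 200 of S100a8 and S100a9 (747 and 1308 barcodes). At least 2-fold higher in gated barcodes were 18.1% and 30.9% of 7793 and 9743 genes tested, and at least 2-fold lower 19.9% and 19.9%. All 17 and 20 tested G2 and M phase genes were higher, and 16 of 18 and 18 of 20 S phase genes. A gene rare in monocytes can pass the minimum of UMIs through the gated side alone. Nothing is therefore read from these counts, or from the count of neutrophil commitment genes below. Of 12 monocyte lineage genes, 4 of which define the monocyte set, 8 and 11 were at least 2-fold lower. Ctss, a lysosomal protease of antigen-presenting cells, stood at 98.8 and 32.3 CPM in gated barcodes and 1848 and 1186 CPM in monocytes. Ly6c2, the surface protein of inflammatory monocytes and of their progenitors, went the other way at 1525 CPM (1472 to 1580.0) and 1609 CPM (1576 to 1642), 2.37-fold and 1.74-fold above monocytes. Neutrophil commitment genes were at least 2-fold above monocytes in 8 of 11 and 8 of 12 tested genes. Among them were Fcnb, the pattern recognition protein ficolin B (358 and 591 CPM), and Gstm1, a glutathione transferase (281 and 522 CPM). Ldhc, a lactate dehydrogenase known from testis, was among the 10 genes with the highest ratio to monocytes in both libraries, at 57.6 and 44.6 CPM.

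The members did not form 1 uniform population. They were divided by Camp, Ngp and Ltf, the secondary granule genes cathelicidin, neutrophilic granule protein and lactoferrin, which the gate did not use. Under 50 per 10000 UMIs lay 66 of 97 members of MGJ (68.0%, 57.8 to 77.1) and 100 of 165 of MGJ2 (60.6%, 52.7 to 68.1). From 50 to under 500 lay 11 and 34, and at 500 or more lay 20 and 31. The limits cut a continuous range, with 21 and 47 members between 250 and 1000. Within the low range the median was 0.316 and 0.434 per 10000, and in the high range 704 and 690.2. Median UMIs per barcode were 21658, 17348 and 15238 across the low, middle and high range of MGJ and 35087, 30112 and 25977 in MGJ2.

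**Figure D3:**
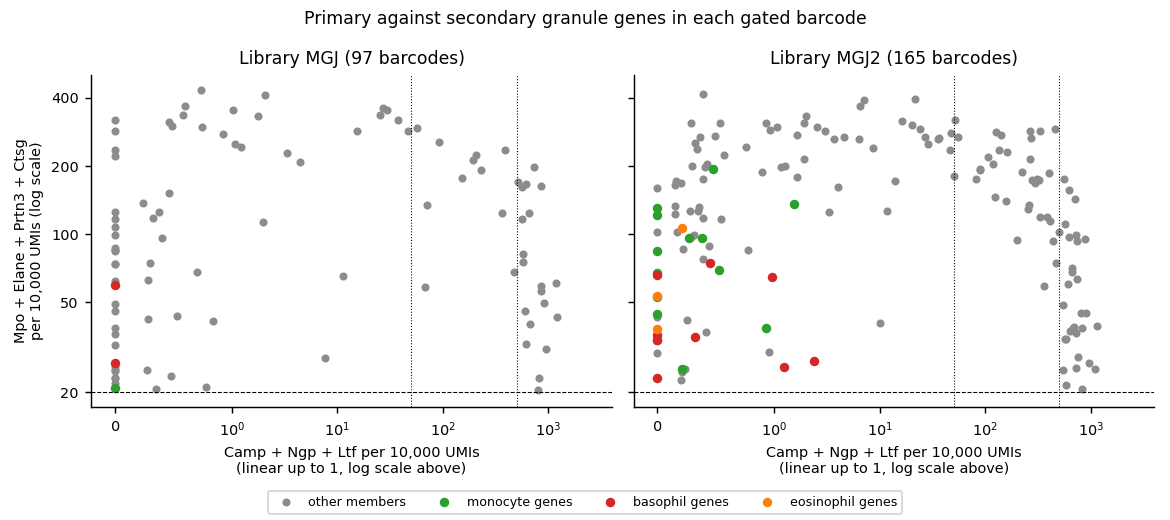
Sum of Mpo, Elane, Prtn3 and Ctsg per 10000 UMIs (log axis) against the sum of Camp, Ngp and Ltf per 10000 UMIs (linear up to 1, log above) in each gated barcode. Dotted lines mark 50 and 500 and the dashed line the limit of the gate at 20. All barcodes with basophil, eosinophil or monocyte genes lie in the low range, and in the high range the gate genes reach down to the limit.

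The 4 primary granule genes did not move together across these ranges. Their sum was 13838, 17592 and 8250.4 CPM in MGJ and 16238, 18283 and 6308 CPM in MGJ2. Ctsg was 13.2-fold and 27.3-fold higher in the low than in the high range, and Mpo 2.76-fold and 5.67-fold. Prtn3 was 1.37-fold and 1.86-fold higher, and Elane 1.16-fold and 1.52-fold. These folds are of summed UMIs. Per member of MGJ, the median of Elane was lower in the low range, at 15.6 against 24.7 per 10000 in the high range. The median of Prtn3 was 38.3 against 36.2, of Ctsg 17.1 against 0.652 and of Mpo 21.5 against 3.97. The low range also held the members with basophil genes described below, which had few UMIs of Elane and Prtn3. In the high range at 2000 UMIs, Ctsg was detected in 26.3% and 9.68% and Mpo in 42.1% and 51.6% of barcodes, while Elane was detected in 78.9% and 90.3% and Prtn3 in 100% and 96.8% (unthinned, Ctsg 70% and 64.5%). These 4 genes chose the members, so their values within the gate are a description. Ms4a3, outside the rule, was 1.44-fold and 1.41-fold higher in the low range.

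Ribosome biogenesis, early progenitor and secretory genes stepped down from range to range in both libraries. Ribosome biogenesis genes summed to 3367 CPM (3276 to 3460.2), 1642 and 646 CPM (556 to 747) in MGJ and to 4193 CPM (4129 to 4259), 1518 and 778 CPM (719.8 to 841) in MGJ2. Early progenitor genes summed to 2271, 1026 and 491 CPM and to 2942, 1043 and 556 CPM, most of it Npm1, which is on both lists. Secretory genes summed to 7621, 5238 and 2797 CPM and to 9431, 4901 and 2438 CPM. Calr had low over high ratios of 8.55 (6.15 to 12.2) and 12.6 (10.5 to 15.1). S100 genes took 210515 and 203786 UMIs per 1000000 in the high range against 15904 and 12785 in the low range, which lowers the share left to all other genes.

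The sum of the neutrophil commitment genes was higher in the high range, from 2091 CPM (2019 to 2164) to 4719 CPM (4469 to 4979) in MGJ and from 1955 CPM (1910.5 to 1999) to 5022 CPM (4872 to 5177) in MGJ2. The genes of this list differed among themselves. Gstm1 stood at 325 and 95.4 CPM in the low and high range of MGJ and 601 and 201 CPM in MGJ2, and so went against the sum. Clec12a, an inhibitory lectin receptor of myeloid cells, stood at 247 and 223 CPM, and at 324 and 307 CPM. Fcnb went with the sum and stood at 101 and 1377 CPM in the low and high range of MGJ and 127 and 1819 CPM in MGJ2. At 2000 UMIs it was detected in 21.5% (12.3 to 33.5) and 14.3% (8.04 to 22.8) of the low range and in 78.9% (54.4 to 93.9) and 100% (88.8 to 100) of the high range. In secondary granule neutrophils outside the gate it was detected in 17.7% and 19.3%, and in B lineage barcodes in 0 of 138, which allows up to 2.17%, and in 0.141%. Cebpe stood at 72.2 and 346 CPM, and at 142 and 466 CPM. Cd177, a neutrophil surface protein that binds proteinase 3, stood at 4.55 and 304 CPM, and at 6.29 and 344 CPM.

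Cell cycle genes did not fall with the progenitor genes. S phase genes summed to 1773 CPM (1707 to 1841), 2247 CPM (2042 to 2468) and 2133 CPM (1966 to 2310.3) in MGJ and 2349 CPM (2301 to 2398), 2560.2 CPM (2463 to 2660.4) and 2543 CPM (2436 to 2654) in MGJ2. G2 and M phase genes summed to 1311 CPM (1254 to 1369.6), 1313 CPM (1157 to 1484) and 1353 CPM (1221 to 1495) in MGJ, where the intervals overlapped, and to 1325 CPM (1288 to 1362), 2325 CPM (2232 to 2420.2) and 2509.9 CPM (2404 to 2619.7) in MGJ2. Per barcode, the G2 and M sum ran from 0 to 48.7 per 10000 in the low range of MGJ2 and from 1.90 to 48.3 in the high range, so single members overlapped widely.

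**Figure D4:**
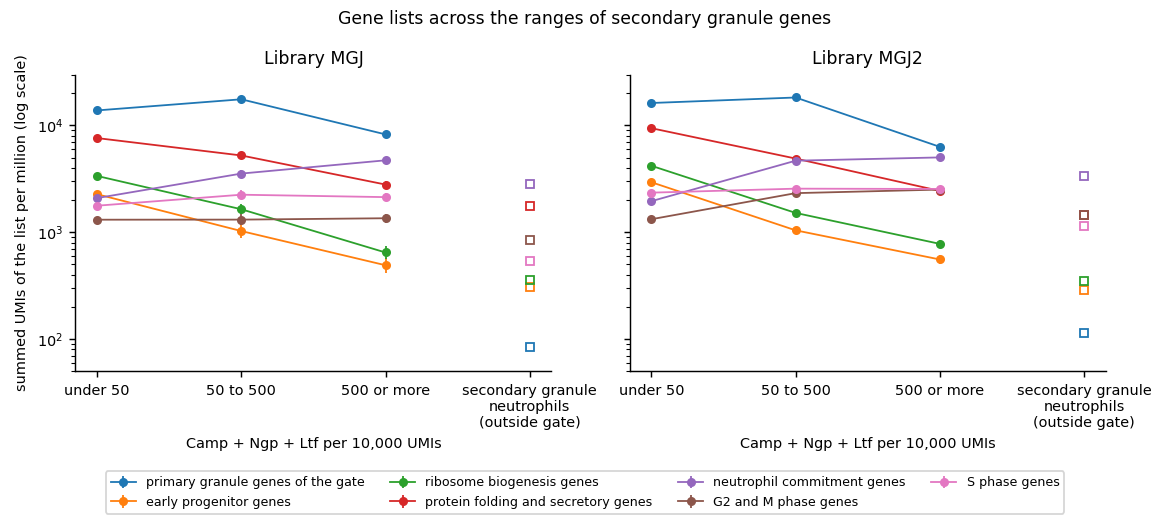
Summed CPM (log axis) of 7 gene lists in gated barcodes with under 50, 50 to 500 and 500 or more UMIs of Camp, Ngp and Ltf per 10000, with exact Poisson 95% intervals, and in secondary granule neutrophils outside the gate (open squares). Progenitor, ribosome biogenesis and secretory genes step down, the summed commitment genes are higher at 500 or more than under 50, and S phase genes lie between 1773 and 2560.2 CPM in all ranges.

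Some members carried genes of lineages other than the neutrophil lineage. Monocyte genes (Irf8, Csf1r, Ly86 and F13a1, at least 10 per 10000 UMIs from at least 2 genes) were found in 1 of 97 members of MGJ (1.03%, 0.0261 to 5.61) and in 13 of 165 of MGJ2 (7.88%, 4.26 to 13.1). A further 15 and 7 members lay between 5 and 10 per 10000, just under this limit. In the 13 members of MGJ2, Irf8, the transcription factor of the monocyte and dendritic cell fate, stood at 371 CPM with UMIs in 11, and F13a1, the coagulation factor subunit of monocytes, at 553 CPM with UMIs in all 13. Irf8 and F13a1 are among the genes that chose these members, so their values are a description. All 13 had UMIs of Mpo, Elane, Prtn3 and Ctsg, whose sum was 9260.3 CPM. Ly6c2 stood at 3119 CPM. Gfi1 had 2 UMIs and Fcnb 12, and S100a8 stood at 149 CPM. Cd74, the invariant chain of MHC class II, had 533 UMIs in 9 of the 13, with a median of 0.273 and a maximum of 40.6 per 10000.

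Basophil genes marked 2 members of MGJ and 10 of MGJ2, by a limit chosen after the values had been seen (Prss34 and Mcpt8, both present and together at least 10 per 10000 UMIs). Prss34 and Mcpt8 are proteases of basophil granules, and since they chose these members, their values here are a description. The 10 members of MGJ2 held 3164 UMIs of Prss34 and 3053 of Mcpt8, with 14 to 595 and 28 to 627 UMIs per barcode. They also held Cpa3, a carboxypeptidase of mast cells and basophils (550 UMIs, in 10 of 10), Gata2, a transcription factor of these lineages (216 UMIs, in 10 of 10), and Fcer1a, the IgE receptor chain (109 UMIs, in 8 of 10). Of the gate genes they carried Mpo (2641 CPM) and Ctsg (1820.3 CPM), but 6 UMIs of Elane and 29 of Prtn3. The 2 members of MGJ held 316 and 475 UMIs of Prss34, 0 of Elane in both, and 16 and 50 of Ctsg. Top2a was detected in 9 of the 10 in MGJ2, at 2 to 31 UMIs. Mcpt8 was not limited to these members. It was detected in 10 of 97 and 58 of 165 gated barcodes (35.2% in MGJ2), against 1.24% of all other kept barcodes and 0.137% of B lineage barcodes of MGJ2, without thinning to equal depth. All 598 and 649 secondary granule neutrophils held 0 and 3 UMIs. In members of the low range without basophil, eosinophil or monocyte genes, 8 of 63 in MGJ and 35 of 74 in MGJ2 held Mcpt8, at up to 3 and 61 UMIs per barcode.

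Eosinophil genes (Prg2, Prg3 and Epx, at least 10 per 10000 from at least 2 genes, a limit also chosen after the values had been seen) marked 0 members of MGJ and 3 of MGJ2. Prg2, eosinophil major basic protein, had 460, 1297 and 1106 UMIs in the 3, and Epx, eosinophil peroxidase, 3, 163 and 147. Both genes chose the 3, so these values are a description. Of the 8 eosinophil markers on the list, Ear1 and Ear6 had 0 UMIs in all gated barcodes of MGJ2. Mpo had 368, 115 and 57 UMIs, while Elane had 17, 12 and 1. Cebpe had 67 UMIs over the 3 (751 CPM), and Fcnb had 0. Scrublet called 1 of the 3 a doublet. These sets are named by their genes and were given no cell type name.

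**Figure D5:**
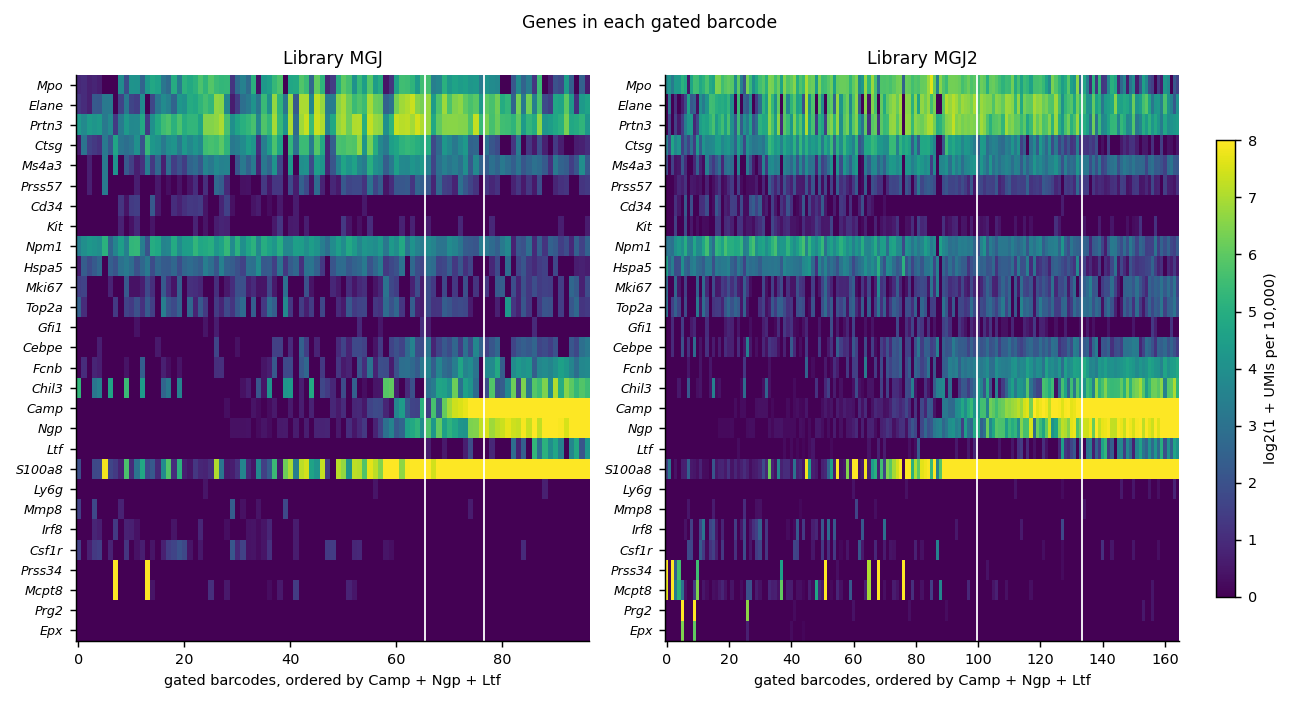
Log2(1 + UMIs per 10000) of 28 genes (rows) in each gated barcode (columns), ordered by the sum of Camp, Ngp and Ltf. White lines mark 50 and 500 per 10000 and the colour scale ends at 8. Mpo, Elane, Prtn3, Ctsg and Ms4a3 run across most columns, Fcnb, Chil3, Camp, Ngp and S100a8 fill the right side, and Prss34, Prg2 and Epx stand in single columns left of the first white line, while Mcpt8 is bright in the columns of Prss34 and faint in further ones.

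Markers of other cells in callus were read in the gated barcodes. Over all genes tested, 25.4% and 29.9% were at least 2-fold lower in gated barcodes than in the other kept barcodes. Of 8 macrophage markers, all 8 were at least 2-fold under the other kept barcodes in both libraries, and their sum reached at most 13.3 and 11.5 per 10000 in a member, with C1q limited by the rule. Of 8 chondrocyte markers, of which Col2a1 was limited by the rule, all were lower, at a median per member of 4.37 and 0.331 and a maximum of 31.8 and 11.5 per 10000. Osteoblast and stromal markers had a median of 1.80 and 0 but a maximum of 336 in MGJ, and 5 of its members held at least 10 per 10000 of Col1a1 and Col1a2, at 24940 to 57188 UMIs per barcode. Of the 10 markers on this list, 2 were at 0 in MGJ, Bglap and Sp7. Ibsp, also on the list, had 30 UMIs there, in 25.8% of members and 145-fold under the other kept barcodes. B lineage markers reached at most 7.73 and 19.6 per 10000, with Igll1 and Rag1 at 0 in both libraries. Erythroid markers reached at most 4.56 and 2.93, megakaryocyte markers 9.21 and 6.14, osteoclast markers 8.21 and 1.77 and endothelial markers 3.96 and 6.26. T and NK cell markers reached 17.6 and 13.4, with Cd3e, Ncr1 and Klrb1c at 0, and Nkg7 made up most of them. Dendritic cell markers reached 62.8 and 84.2, with Xcr1 at 0. The part of these RNAs in the results was not tested, other than by leaving out the members with basophil, eosinophil or collagen genes.

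Piezo1, the mechanosensitive channel that the study was about, stood at 32.3 CPM (24.9 to 41.1) and 20.6 CPM (17.1 to 24.7) in gated barcodes, below monocytes (63.4 and 73.3 CPM). At 2000 UMIs it was detected in 3.16% (0.656 to 8.95) and 4.29% (1.74 to 8.65) of gated barcodes (unthinned 37.1% and 42.4%) and in 5.07% and 5.23% of B lineage barcodes. Its detection in the gate was not above that in B lineage barcodes at this depth. Whether B lineage cells make Piezo1 was not tested, so they are no reference for its free RNA. Apoe stood at 51.1 and 42.8 CPM against 2357 and 1906 CPM in monocytes. Trp53, the tumour suppressor p53, stood at 73.9 CPM (62.5 to 86.8) and 101 CPM (93.1 to 109.8), 4.83-fold and 4.53-fold above secondary granule neutrophils, and Cdkn2a had 0 UMIs in both libraries.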

How the data were processed

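Single-cell 3′ RNA-seq libraries of mouse fracture callus (MGJ and MGJ2) were analysed. The authors deposited raw UMI counts per gene and barcode, made with Cell Ranger 4.0.0 on GRCm38 per the labels and the submitters' processing notes. The annotation is not given in the sources used here. Total counts were 135304426 UMIs in 14295 barcodes (MGJ) and 61130834 in 8009 (MGJ2). Barcodes with under 200 genes or over 20% mitochondrial UMIs were removed. Counts were summed over barcodes of a set and scaled to CPM, with exact Poisson intervals. Ratios had exact conditional binomial intervals and shares Clopper-Pearson intervals, all at 95%. These cover counting error only. With 2 libraries and no day in the labels, no test was run. Genes with at least 50 UMIs over both sets were compared at a 2-fold limit. Detection was also read after thinning to 2000 UMIs (seed 7). Members and the 32 gene lists were chosen with earlier results of these data known. Named genes came from the lists or were among the 10 highest or 10 lowest ratios of a comparison, detected in at least 20% of the higher set, leaving out mt-, Rpl, Rps, Gm and Rik genes. Comparison sets were taken in order from barcodes outside the gate: secondary granule neutrophils, mature neutrophils (S100a8 and S100a9 at least 200 per 10000) and monocytes. B lineage barcodes (Cd79a and Cd79b, at least 10 per 10000) served as low reference, other than for Piezo1. Scrublet called 0 doublets in MGJ, where it did not work, and 229 in MGJ2, 3 of them gated. Gated barcodes held 16 of the 1449 highest scores in MGJ (10.8% of kept barcodes) and 30 of 487 in MGJ2 (6.24%). None was removed. Gene positions came from GENCODE M21 and promoters from RefSeq. The calculations were tested on simulated data. Tools were Python 3.11.15, numpy 2.4.6, scipy 1.17.1, pandas 2.3.3, scanpy 1.11.5 and matplotlib 3.10.9.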

Additional observations from a re-analysis of the deposited data

Results flagged for a closer look

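Barcodes removed by the filters, which no comparison used, held gate genes in library MGJ2. Among its 203 removed barcodes, 2 met the gate, and all 203 together held 521 UMIs of Mpo, Elane, Prtn3 and Ctsg, or 1268 CPM (95% interval 1161 to 1381). Of the 2, the higher share of mitochondrial UMIs was 44.9%. The 835 removed barcodes of library MGJ held 2 UMIs of these genes (1.39 CPM), and 0 of them met the gate.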

How the results depend on the processing

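Of 112 alternative values of the 6 main results, 91 moved by less than their counting interval (counts of genes, by less than 1.5 times) and 21 moved further. Only the Ms4a3 and cell cycle ratios could turn direction, since shares and counts of genes have none, and 0 of their values did. The Ms4a3 ratios lay far above 1, which left little room for a turn. The summed ratios of the gene lists were less stable. Of their 760 alternative values, 484 stayed within the counting interval, 273 moved further and 3 turned direction. With a gate minimum of 10 per 10000 UMIs, the gated share was 0.936% in MGJ and 2.46% in MGJ2, the cell cycle ratio 2.41 and 1.61, and the Ms4a3 ratio in MGJ2 86.7. With a minimum of 50, the gated share was 0.505% and 1.63%, the share with monocyte genes in MGJ 0%, and in MGJ2 the Ms4a3 ratio 59.8 and the cell cycle ratio 1.45. Among barcodes with at least 2000 UMIs the gated share in MGJ was 0.943%. With barcodes weighted equally, the Ms4a3 ratio was 352 and 160.4 and the cell cycle ratio 3.29 and 2.80. That weighting also turned the summed ratio of growth factor receptors over secondary granule neutrophils in MGJ from 1.12 to 0.963, and that of neutrophil commitment genes from 0.909 to 1.05 and from 0.864 to 1.07. Genes at least 2-fold above secondary granule neutrophils numbered 977 and 1784 at 200 UMIs or more, and 5494 and 5285 with 1 UMI in both sets. The genes tested at these limits were not counted, so no shares are given. After seeing the data, 2 alternatives were added. Without the barcodes of highest Scrublet score, the Ms4a3 ratio in MGJ was 321, and without members with basophil, eosinophil or collagen genes the cell cycle ratio in MGJ was 2.39. The causes were not tested. Removing Scrublet calls gave no value in MGJ, which had 0 calls. No paired analysis was possible because the labels give the libraries no groups and no test was run. Depth limits low genes such as Piezo1, Kit and Gfi1, whose values rest on few UMIs.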

Other observations

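The neighbours of Prtn3 and Elane on chromosome 10 were read for their own levels. From Prss57 to Cfd, which encodes complement factor D, the annotation lists 13 genes over 111182 bases. Plppr3, a phospholipid phosphatase-related gene on the opposite strand whose model overlaps that of Prtn3, stood 12.4-fold and 23.2-fold above all other kept barcodes, at 19.4 and 29.1 CPM. Palm, a membrane-associated protein gene beside Prss57, stood 4.10-fold and 6.69-fold above. Ptbp1, an RNA-binding splicing regulator between them, was at ratios of 0.617 and 1.19, and Cfd had 1 and 4 UMIs. These genes were chosen for their position.

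Among marrow retention and migration genes, 2 of 11 and 2 of 11 were at least 2-fold above secondary granule neutrophils (all genes, 37.3% and 39.8%) and 3 and 4 at least 2-fold below. Itga4, the integrin chain that binds VCAM-1, stood at ratios of 8.47 (4.72 to 16.1) and 4.06 (3.24 to 5.12). Cxcr4, the receptor that holds neutrophils in marrow, stood at 33.7 CPM (26.2 to 42.8) and 207 CPM (195 to 219), with ratios of 0.438 and 0.523.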
